A study of Gallus gallus with 40 samples.

Results

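The nuclear-encoded subunits of the mitochondrial respiratory chain were followed in chicken breast muscle as 67 genes that could be read on the array. They were taken from 75 such genes in the chicken RefSeq gene table. A gene entered when its symbol began with NDUFA, NDUFB, NDUFC, NDUFS or NDUFV (complex I), was SDHA, SDHB, SDHC or SDHD (complex II), or began with UQCR (complex III), COX4 to COX8 (complex IV) or ATP5 (complex V). Genes named as assembly factors were left out. The rule uses symbols and no measured value, although it was set with earlier results of these data known. The 67 genes were read by 90 of 56401 probes on the array, of which 25956 (46.0%) could be matched to 1 of 13912 genes. The array held 32 of 36 genes of complex I, 3 of 4 of complex II, 7 of 8 of complex III, 9 of 9 of complex IV and 16 of 18 of complex V. No probe was matched to NDUFA7, NDUFB7, NDUFB11, NDUFC2, SDHC, UQCRB, ATP5PB or ATP5F1AZ.

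The respiratory chain sits in the inner mitochondrial membrane. Complex I takes electrons from NADH and complex II takes them from succinate, complex III hands them to cytochrome c, complex IV passes them to oxygen, and complex V, the ATP synthase, uses the proton gradient built by complexes I, III and IV to make ATP. Most subunits are encoded in the nucleus and imported, while a smaller set comes from the mitochondrial genome, for which no probe was matched. The pectoralis major of broilers is made almost wholly of fast glycolytic fibers, which hold few mitochondria. The roles given below for single subunits are those known from mammals. Some genes carry the prefix without being structural subunits of the named complex. COX7A2L helps to join complexes III and IV, and NDUFA4 is now counted with complex IV. ATP5S and ATP5SL stand under complex V by their symbols only. ATP5F1AW is the W-linked copy of the alpha subunit, whose Z-linked copy is nearly identical.

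The study asked how the muscle transcriptome differs between breasts with and without 2 defects of fast-growing broilers. White striping (WS) appears as pale lines along the fibers, and wooden breast (WB) as a hardened muscle. Total RNA from 40 samples of the pectoralis major was hybridized with 1 dye to a custom Agilent array, 1 array per sample. Each sample is counted below as a bird, which was not stated for every array. All birds were commercial ROSS broilers labelled male, raised on 5 farms in central Thailand under a common industrial practice. Breasts were graded by their look, tissue from one side was snap frozen, and RNA was used where its integrity number was above 7. In 21 arrays the titles and source names grade the breasts for WS, with 4 non-WS, 7 mild, 6 moderate and 4 severe birds. The characteristics of these arrays carry the same grades under wooden breast instead, with white striping given as no, and the methods describe WS grades and fewer mild birds, so the titles were followed here. Their labels give no age, and the methods describe 7-week-old birds, among which no breast free of WS was found. The 4 non-WS birds are therefore not among those described, and their age and collection were not given in the sources used here. In the other 19 arrays each breast carried a WS grade and was either free of WB (non-WB) or severely affected (severe WB). At 49 days there were 3 non-WB and 2 severe WB birds with mild WS, and 4 non-WB and 3 severe WB birds with moderate WS. At 45 days or under there were 4 non-WB birds with severe WS and 3 severe WB birds with mild WS, so that at this age WB and the WS grade changed together and cannot be told apart. How birds of a group were spread over farms was not given in the sources used here. The methods call the mild and moderate WS samples biological replicates, whereas the labels of the WB arrays only number them, so that p-values there measure the spread between these samples. The arrays lay on 5 slides of 8, and the place on a slide moved with the group.

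Values below are normalized intensities of 1 probe per gene, the brightest of that gene, and an intensity is comparable between birds but not between probes. A gene was called when limma gave an adjusted p of 0.05 or less over all probes and a difference of at least 1.2-fold. Between 66.9% and 78.6% of the spots of an array were well above background, the median spot stood 4.04 to 12.6 times above its local background, and no spot was saturated. Before normalization, the median intensity of an array was 273 and 298 in severe WB and 179, 147 and 140 in non-WB birds with mild WS at 49 days. At 45 days or under it was 201, 238 and 122 in severe WB replicates 1, 2 and 3. Moderate WS replicate 5, at 259, was the brightest of the WS arrays (76.4 to 259). The part of this brightness in the values of the subunits was not tested. The fast fiber troponins TNNC2, TNNI2 and TNNT3 were the 3 of 10 skeletal muscle fiber markers with a matched probe. They summed to between 661432 and 798300 in every group. Quantile normalization holds the brightest probes at similar values on every array, so the likeness of these sums is no check of the tissue label. The filter was passed by 64 of the 67 genes on the WS arrays and by 66 on the WB arrays. NDUFS8, an iron-sulfur subunit of complex I, was not above background on any array, and COX7A2 and COX8A, both small subunits of complex IV, were too dim on the WS arrays, where 20 and 17 of 21 arrays passed. The other members were mostly bright, with a median intensity over the members of 30166 on the WS arrays and 36839 on the WB arrays. One severe WB bird with mild WS at 45 days or under, replicate 3, had levels of most members and of macrophage and fibroblast markers near those of the non-WB birds, and the counts it changes are given with and without it. Because whole muscle was extracted, fewer fibers or mitochondria and less RNA per fiber cannot be told apart.

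At 49 days, severe WB birds had lower levels of most subunits than non-WB birds when the 2 WS grades were averaged. The median log2 fold change was -0.43 with mild WS and -0.04 with moderate WS. Over both WS grades (5 severe WB against 6 non-WB birds on the same slides, since the fourth non-WB bird with moderate WS lay on another slide and did not enter the difference), 56 of 66 genes lay lower, the median log2 fold change was -0.24, and 11 genes (16.7%) were called lower and 0 higher. Over all 34518 probes, 8.26% were called lower and 7.47% higher, and the median was -0.01. The median was -0.29 over the 31 genes of complex I, -0.35 over the 3 of complex II, -0.33 over the 7 of complex III, -0.00 over the 9 of complex IV and -0.17 over the 16 of complex V. Of the 11 called genes, 7 belonged to complex I, 1 to complex II, 2 to complex III, 1 to complex V and 0 to complex IV, for which limma gave an unadjusted p under 0.05 to 2 genes. The count of called members was 0 without either severe WB bird with mild WS and 2 without severe WB moderate WS replicate 1. Among the non-WB birds it was 5, 3 and 5 without mild WS replicates 1, 2 and 3, 7, 6 and 4 without moderate WS replicates 1, 2 and 3, and 7 without severe WS replicate 2, and it was 6 without severe WB moderate WS replicate 3 and 19 without severe WB replicate 3 of the younger birds. The share of all probes called in these fits is not given here, so the changes in count cannot be read as particular to the members.

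SDHA, the flavoprotein of complex II that oxidizes succinate and so also serves the citric acid cycle, showed the lowest adjusted p. Its intensity was 8934, 10713 and 7780 in the non-WB birds with mild WS against 4082 and 4252 in the severe WB birds with mild WS. It was 8963, 7592, 9251 and 9797 in the non-WB birds with moderate WS against 5552, 5518 and 6288 in the severe WB birds with moderate WS. Every severe WB bird was below every non-WB bird at this age, and the birds with mild WS were lowest. The log2 fold change was -0.85 ± 0.16 (SE), 1.80-fold lower (limma, adjusted p = 0.0138).

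UQCRFS1, the Rieske iron-sulfur protein of complex III, followed the same order. It measured 14085, 14028 and 12560 in non-WB and 5493 and 6186 in severe WB birds with mild WS. With moderate WS it measured 12855, 11291, 15800 and 15885 in non-WB and 10566, 11273 and 9211 in severe WB birds. The groups did not overlap, although the highest severe WB bird with moderate WS was close to the lowest non-WB bird. The log2 fold change was -0.79 ± 0.16 (limma, adjusted p = 0.0148). NDUFA10, an accessory subunit of complex I, was the last of the called genes whose groups did not overlap, with 1116, 1125 and 1016 against 639 and 636 with mild WS, and 1283, 1032, 1309 and 1349 against 729, 951 and 865 with moderate WS. Its log2 fold change was -0.64 ± 0.15 (limma, adjusted p = 0.0219). These genes were selected by the call, and how often groups were separate over all probes was not counted.

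**Figure D1:**
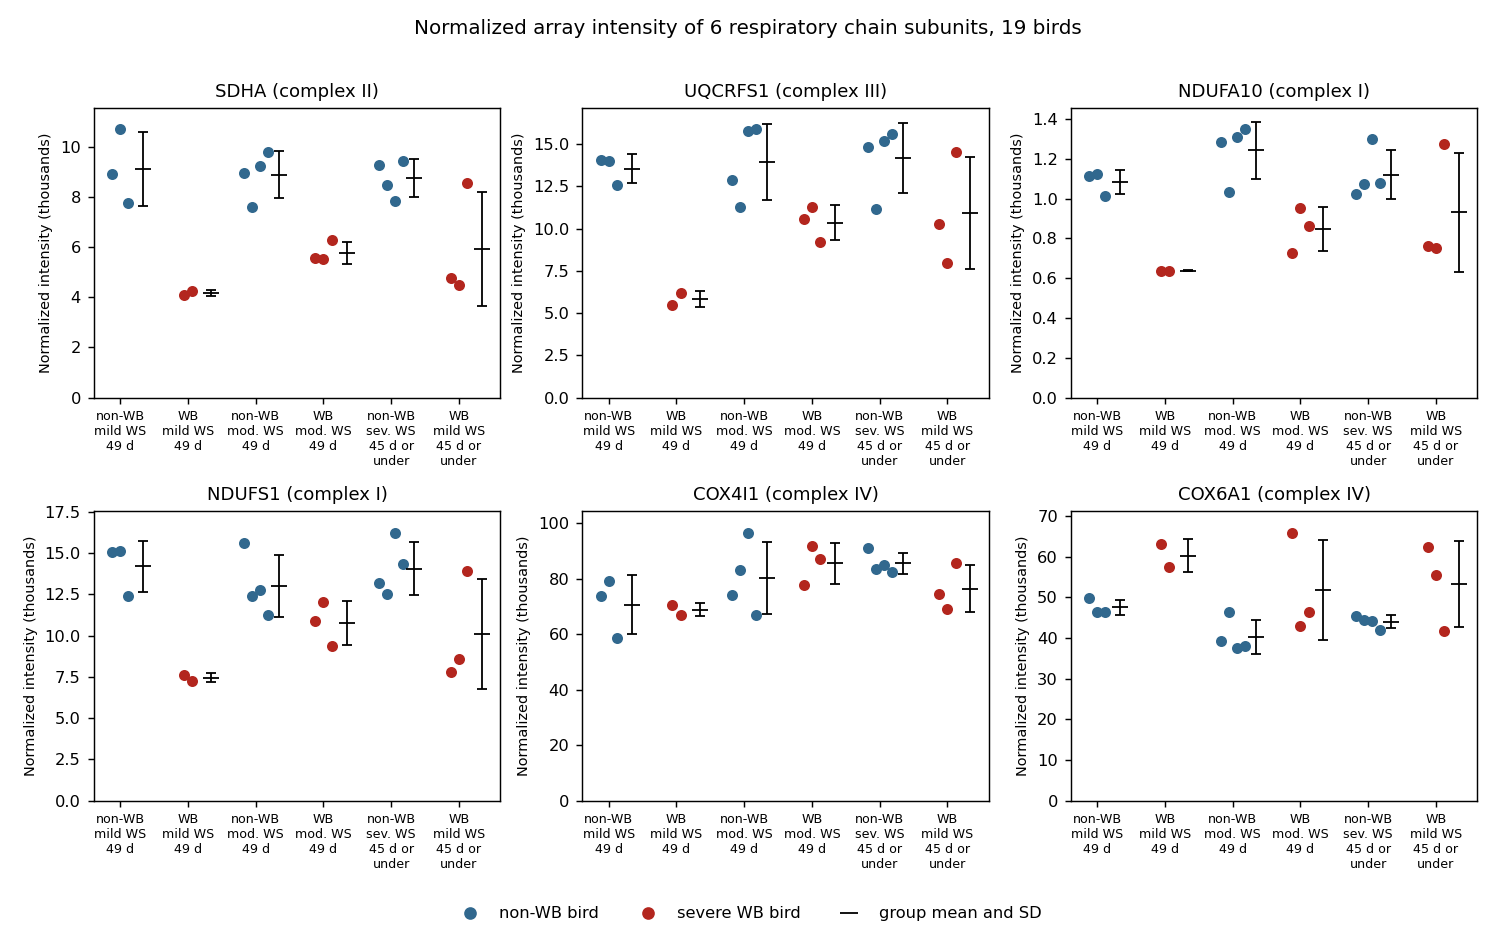
Normalized intensity (axes from 0, in units of 1000) of SDHA, UQCRFS1, NDUFA10, NDUFS1, COX4I1 and COX6A1 in each bird of the 6 WB-array groups, named by WS grade and age, with 1 point per bird, the group mean as a line and bars of 1 SD (mod., moderate; sev., severe). For SDHA, UQCRFS1 and NDUFA10 the 5 severe WB birds at 49 days lie under the 7 non-WB birds, while for COX4I1 the groups overlap. At 45 days or under 1 of 3 severe WB birds lies with its controls.

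The other called genes fell by less, and their groups overlapped over both WS grades. In complex I these were NDUFS1, the large iron-sulfur subunit that carries electrons away from the NADH site (-0.63), NDUFA12 (-0.63) and NDUFS6 (-0.50), which sit in the matrix arm, NDUFS3, a core subunit of that arm (-0.45), and NDUFA1 (-0.56) and NDUFB10 (-0.47), accessory subunits of the membrane arm. In complex III it was UQCRQ, a small accessory subunit (-0.61), and in complex V ATP5G1, 1 of 3 genes for the c subunit of the proton-driven ring (-0.40). For these 8 genes limma gave adjusted p-values from 0.0243 (NDUFS1) to 0.0486 (NDUFB10). NDUFS1 measured 15031, 15148 and 12406 against 7643 and 7252 with mild WS, and 15627, 12399, 12763 and 11259 against 10902, 12056 and 9378 with moderate WS. For this gene 4 of the 5 severe WB birds were below every non-WB bird, and the 2 with mild WS were lowest.

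Other catalytic or central subunits differed less and were not called. NDUFV1, which binds NADH and the flavin, had a log2 fold change of -0.28 ± 0.13 (adjusted p = 0.129), and SDHB, the iron-sulfur partner of SDHA, -0.35 ± 0.14 (adjusted p = 0.0855). SDHD, the membrane anchor of complex II, was at -0.13, UQCRC1, a core protein of complex III, at -0.25, and ATP5B, the catalytic beta subunit of the ATP synthase, at -0.22. UQCR10, a small subunit, had the highest value of complex III, at -0.21. NDUFS5 in complex I and ATP5G3 in complex V had the highest values of their complexes, 0.15 and 0.09, and both turned negative when each array was scaled to its 75th percentile (-0.22 and -0.28).

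Complex IV had a median near 0, which became -0.43 when each array was scaled to its 75th percentile. COX4I1 and COX5A, nuclear subunits that bind the catalytic core made from mitochondrial genes, had log2 fold changes of -0.00 ± 0.12 and -0.07 ± 0.11. COX4I1 measured 73852, 79382 and 58744 in non-WB and 70585 and 67131 in severe WB birds with mild WS, and 74009, 83334, 96676 and 66941 against 77617, 91979 and 87040 with moderate WS, so that the groups overlapped. COX6A1 was the only member with an unadjusted p under 0.05 in the upward direction, at 0.33 ± 0.14 (adjusted p = 0.103). Its 2 probes had the same sign, and the value became -0.02 after scaling to the 75th percentile. COX7A2, at 0.51 ± 0.30, was dim, with intensities between 38 and 150 at 49 days, and COX8A was dim too, between 34 and 65. Both count in the median of the complex, and the median without them was not computed. COX7A2L had the lowest value of the complex (-0.41 ± 0.14, adjusted p = 0.0557). After that scaling the medians of complexes I, II, III and V were -0.53, -0.60, -0.63 and -0.48, with 26 of the 66 genes called, while the median over all probes was -0.05. The all-probe split of calls then shifted from 2580 higher and 2851 lower to 1970 higher and 3304 lower.

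The isoforms of one subunit had different values. Of the 3 genes for the c subunit, which encode the same mature protein, ATP5G1 was called lower (-0.40 ± 0.12), whereas ATP5G2 was at -0.02 ± 0.14 and ATP5G3 at 0.09 ± 0.10. ATP5G1 measured 40818, 36406 and 35928 against 25868 and 22636 with mild WS, and ATP5G3 measured 72021, 69944 and 78216 against 75842 and 75484. The difference between the isoforms was not tested, and the sign of ATP5G3 depended on the scaling as above. NDUFA4, which belongs with complex IV in mammals, was at -0.40 ± 0.16 (adjusted p = 0.0900). The muscle-type isoforms COX6A2 and COX7A1 and the isoform NDUFA4L2 were not read here.

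**Figure D2:**
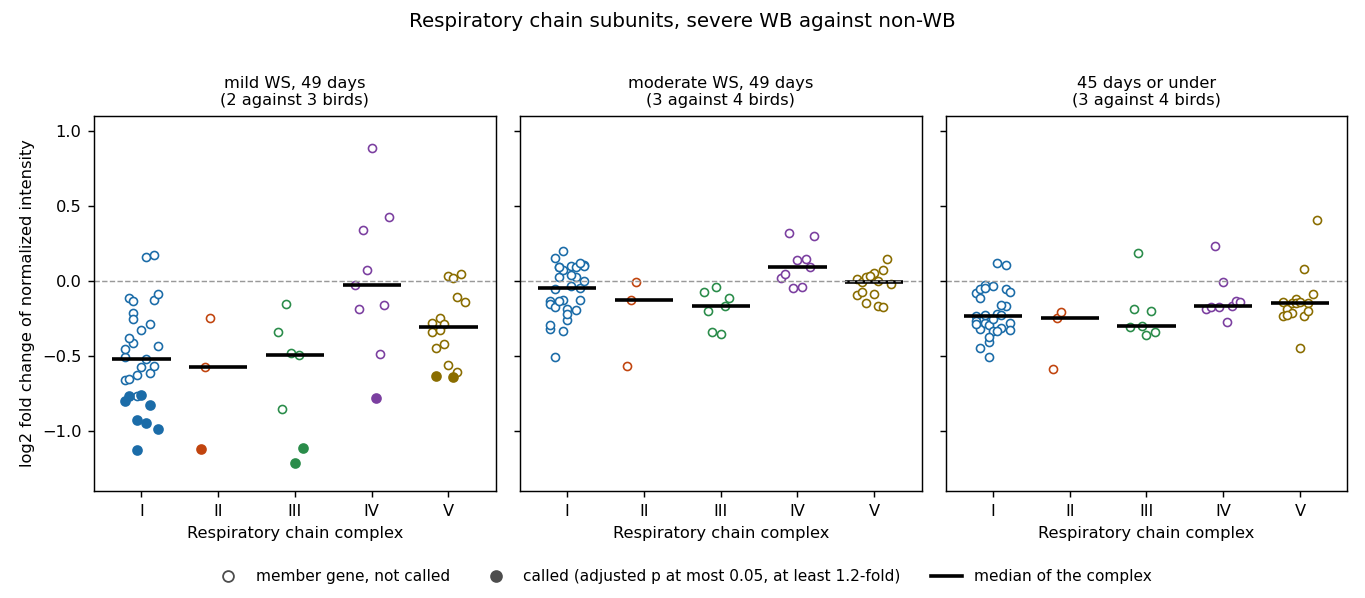
Log2 fold change of each member, severe WB against non-WB, by complex, in 3 panels: mild WS at 49 days, moderate WS at 49 days, and 45 days or under. Each point is 1 gene, filled where limma called it (of the 4 non-WB birds named in 2 panels, the fourth lay on another slide and does not enter the difference), and the short bar is the median of the complex. With mild WS at 49 days the medians of complexes I, II and III lie at -0.52, -0.58 and -0.50, with moderate WS at -0.05, -0.13 and -0.17.

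Taken alone, the birds with mild WS at 49 days gave larger differences than the birds with moderate WS. With mild WS (2 severe WB against 3 non-WB birds, all on 1 slide), 57 of 66 genes lay lower, the median was -0.43, and 14 genes (21.2%) were called lower and 0 higher, against 5.89% of all probes called lower and 4.67% higher. Groups did not overlap for any of the 14, but these genes were selected by the call and the groups were small, so this adds no separate support. The share of all probes without overlap was not counted. The largest falls were those of UQCRFS1 (-1.22 ± 0.23, adjusted p = 0.0153), NDUFA12 (-1.13 ± 0.24), SDHA (-1.12 ± 0.24) and UQCRQ (-1.11 ± 0.27), which were 2.17 to 2.32-fold lower. UQCRQ measured 31476, 41661 and 36745 in non-WB and 17499 and 16138 in severe WB birds. NDUFA12 measured 51987, 49748 and 49226 against 22603 and 23532.

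Both severe WB birds were far below the lowest non-WB bird for these genes. NDUFS6 (-0.99), NDUFS3 (-0.95), NDUFS1 (-0.92), NDUFB3, a membrane-arm subunit (-0.83), NDUFA1 (-0.80), COX7A2L (-0.78), NDUFA10 (-0.77), NDUFB10 (-0.76), ATP5G1 (-0.64) and ATP5C1, the gamma subunit that turns inside the synthase (-0.63), were also called. Of the members not called, SDHB, NDUFV1, ATP5B, SDHD, COX5A, UQCRC1 and COX4I1 were at -0.58, -0.38, -0.34, -0.25, -0.19, -0.15 and -0.03. The highest values of complexes I, IV and V were those of NDUFS5 (0.17), COX7A2 (0.89 ± 0.45) and ATP5G3 (0.05), and those of NDUFS5 and ATP5G3 became -0.39 and -0.54 after scaling to the 75th percentile. The calls rested on few birds: 0 genes were called without non-WB replicate 2 or without either severe WB bird, 3 without non-WB replicate 1, 7 without non-WB replicate 3, 9 without non-WB severe WS replicate 2 or severe WB moderate WS replicate 3, and 22 without severe WB replicate 3 of the younger birds. The median stayed between -0.45 and -0.39 in all of these fits. Their share of all probes called is not given here, so the changes in count cannot be read as particular to the members.

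With moderate WS at 49 days (3 severe WB against 3 non-WB birds on the same slide), the median was -0.04, 39 of 66 genes lay lower and none was called by limma, as was the case for 0 of all probes. A t-test over all birds of the groups, without the methods' batch step, also called 0 members. An unadjusted p under 0.05 in limma was reached by 3 genes (4.55%), all lower, against 6.82% of all probes lower at that level. These were SDHA (-0.57 ± 0.21, adjusted p = 0.373), NDUFA10 (-0.51 ± 0.20) and UQCRC1 (-0.34 ± 0.14). For UQCRC1 the severe WB birds measured 54553, 51313 and 49748 and the non-WB birds 66455, 58744, 72917 and 62795, without overlap. This gene was named for its small p, and how often groups were separate over all probes was not counted. The lowest member of complex III was UQCRFS1 (-0.35) and the highest UQCRC2, the second core protein (-0.04). NDUFV3, a small accessory subunit, was the highest of complex I (0.20), SDHD of complex II (-0.01), COX6A1 of complex IV (0.32) and ATP5G3 of complex V (0.14), while COX6C (-0.05) and ATP5SL (-0.18) were the lowest of theirs. The median lay between -0.10 and 0.05 when single birds were left out and at -0.14 after scaling to the 75th percentile.

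Whether the effect of severe WB differed between the 2 WS grades was tested directly, in a contrast added after the results were known. The median difference of the log2 fold changes was -0.35, more negative with mild WS for 56 of 66 genes. limma called 0 of all probes and 0 members, with 13 genes (19.7%) at an unadjusted p under 0.05 and more negative with mild WS, against 5.83% of all probes. NDUFS3 (-0.99 ± 0.28, adjusted p = 0.249), NDUFS6 (-0.99), NDUFB3 (-0.86) and NDUFA12 (-1.0) had the smallest p-values. UQCRQ had the most negative difference (-1.0) and COX7A2 the most positive (0.75). The 2 grades lay on different slides, so the grade and the slide cannot be told apart here.

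At 45 days or under (3 severe WB birds with mild WS against 3 non-WB birds with severe WS on the same slide), 60 of 66 genes lay lower, the median was -0.20, and limma called 0 members and 0 of all probes. A t-test over all birds of the groups, without the methods' batch step, also called 0 members. An unadjusted p under 0.05 in limma was reached by 3 genes (4.55%), all lower, against 5.19% of all probes lower. The medians of complexes I to V were -0.23, -0.25, -0.30, -0.17 and -0.15. SDHA measured 9297, 8477, 7855 and 9440 in the non-WB birds and 4764, 4482 and 8555 in the severe WB birds. Replicates 1 and 2 of the severe WB birds were below every control and replicate 3 was within their range. The log2 fold change was -0.59 ± 0.21 (adjusted p = 0.433). NDUFS1 was at -0.51 ± 0.21 and NDUFA9, which lies near the quinone site of complex I, at -0.44 ± 0.19.

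Without severe WB replicate 3, the median at 45 days or under was -0.31 and 8 members (12.1%) were called lower, against 5.88% of all probes. They were SDHA (-0.88), NDUFS1 (-0.76), NDUFA12 (-0.66), UQCRQ (-0.65), NDUFA9 (-0.62), NDUFS3 (-0.58), NDUFA10 (-0.57) and NDUFS6 (-0.56). The bird was named for its values, so this count is a description. In the fit with all birds, the lowest and highest members were NDUFS1 and NDUFB2 (0.12) in complex I, SDHA and SDHD (-0.20) in complex II, UQCRFS1 (-0.36) and UQCRC1 (0.19) in complex III, COX7A2L (-0.28) and COX6A1 (0.23) in complex IV, and ATP5F1AW (-0.44) and ATP5H, a subunit of the peripheral stalk (0.40), in complex V. The value of ATP5H came from 1 control bird at 12733 beside 3 at 40347 to 47162, the other probe of the gene gave -0.16, and without that bird the value was -0.22. ATP5F1AW was dim, and its probe cannot be told from the Z-linked copy by name alone. All birds were labelled male, and male chickens carry no W chromosome, so its value cannot be read as the level of the W-linked copy. The source of its signal was not tested.

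The effects of severe WB at the 2 ages were then compared. The birds that entered them lay on different slides for the 2 ages, and only the younger controls had severe WS. Age, slide and WS grade therefore cannot be told apart in this difference. The median difference, 45 days or under against 49 days, was 0.03, with 39 of 66 genes higher and 27 lower, and 0 members and 0 of all probes were called by limma. UQCRC1 was the only member with an unadjusted p under 0.05 (0.43 ± 0.17, adjusted p = 0.976), 1.52% of the members against 4.21% of all probes in either direction. COX7A2 (-0.52) and ATP5H (0.49) were the extremes. The median moved to 0.26 after scaling to the 75th percentile and to -0.07 without severe WB replicate 3 of the younger birds.

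**Figure D3:**
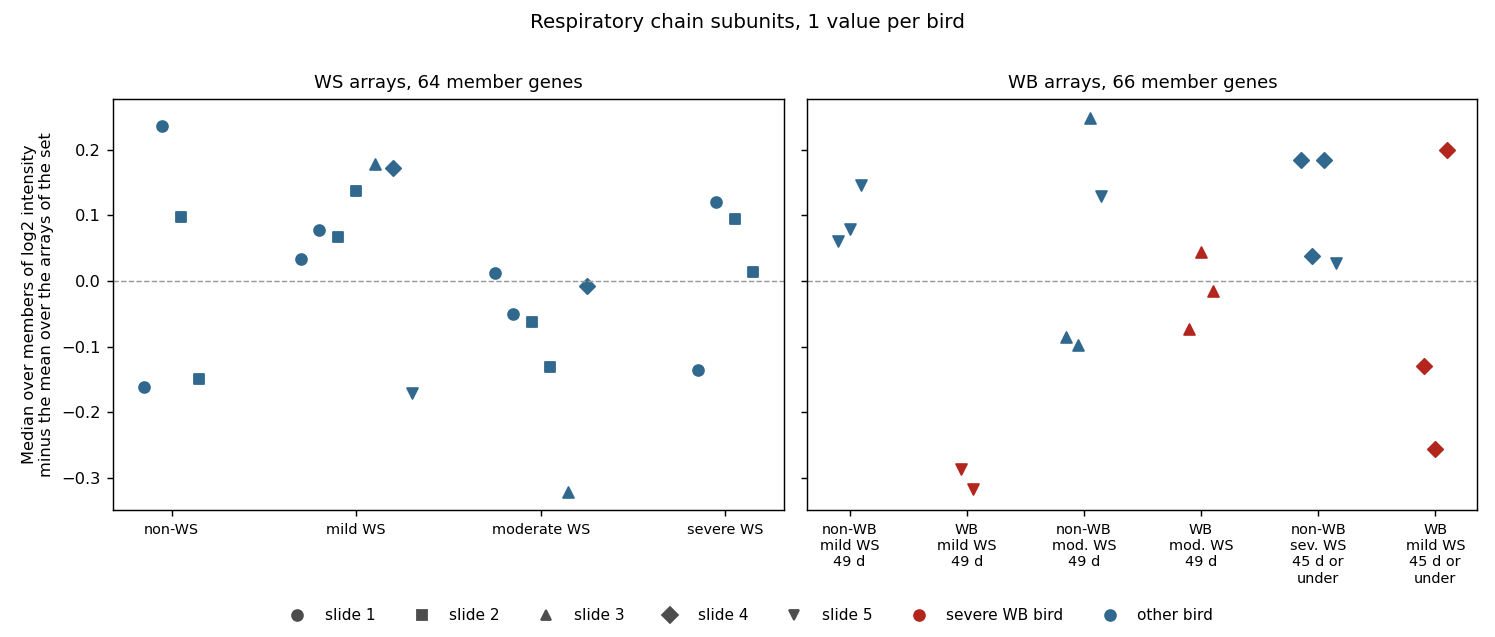
Median over the members of each bird's log2 deviation from the mean of its array set, for the WS arrays (64 genes) and the WB arrays (66 genes), with 1 point per bird and a marker for each slide (mod., moderate; sev., severe). The 2 severe WB birds with mild WS at 49 days lie at -0.29 and -0.32, and 1 severe WB bird at 45 days or under lies at 0.20, above the other 2 at -0.13 and -0.26.

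Bird by bird, the median over the members was 0.06, 0.08 and 0.15 in the non-WB birds with mild WS and -0.29 and -0.32 in the severe WB birds with mild WS at 49 days. It was -0.09, -0.10, 0.25 and 0.13 in the non-WB birds with moderate WS and -0.07, 0.04 and -0.02 in the severe WB birds with moderate WS. It was 0.18, 0.04, 0.18 and 0.03 in the younger non-WB birds and -0.13, -0.26 and 0.20 in the younger severe WB birds. The groups were separate with mild WS at 49 days and overlapped in the other pairs. For complex I the same 2 severe WB birds with mild WS were at -0.47 and -0.49 and for complex IV at -0.10 and -0.22.

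Other genes of mitochondrial respiration, taken from lists rather than by their change, were mostly lower too in severe WB at 49 days, with medians beside -0.01 over all probes. The counts of called genes stand beside 8.26% of all probes called lower and 7.47% called higher. All 11 tested genes of the citric acid cycle lay lower, with a median of -0.53, and 5 were called, among them OGDH, the 2-oxoglutarate dehydrogenase (-1.0), SUCLG1, a subunit of the succinyl-CoA ligase (-0.92), IDH3A, of the NAD-dependent isocitrate dehydrogenase (-0.77), and MDH2, the mitochondrial malate dehydrogenase (-0.53). Of 33 assembly factors, 29 lay lower and 5 were called, FOXRED1 (-0.60), NDUFAF6 (-0.56) and NDUFAF2 (-0.46) for complex I and SCO2 (-0.52) and SURF1 (-0.50) for complex IV. Of 3 electron carriers, CYCS, the cytochrome c between complexes III and IV, was called lower (-0.52) and ETFA, a subunit of the flavoprotein that carries electrons from fatty acid oxidation, higher (0.59). Of 9 regulators of mitochondrial genes, TFB2M, a factor for mitochondrial transcription, was called lower (-0.53), and the coactivator PPARGC1A did not pass the filter. The medians were -0.29 over the assembly factors, 0.10 over the electron carriers and -0.24 over the regulators. None of 13 genes of the mitochondrial genome had a matched probe. With moderate WS and at 45 days or under no gene of these lists was called. In both comparisons 0 of all 34518 probes were called, so this is not particular to the lists.

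Markers of other cells also differed between severe WB and non-WB birds, but not always in the same pairs as the subunits. With moderate WS at 49 days the macrophage and fibroblast sums below were separate, while the bird medians over the members overlapped. Of 7 tested fibroblast markers, all lay higher in severe WB at 49 days and DCN, POSTN, FN1 and LUM were called, and of 6 tested macrophage markers all lay higher and C1QA, C1QB, C1QC and CTSS were called. All 13 of these markers were above background on every WB array. Over all probes at 49 days, 7.47% were called higher and 8.26% lower, which applies to all counts of called markers here. The summed macrophage markers measured 48594 to 85392 in non-WB and 176474 and 208099 in severe WB birds with mild WS at 49 days, 43436 to 73658 and 77659 to 136608 with moderate WS, and 40375 to 63292 and 41666 to 147322 at 45 days or under. The summed fibroblast markers measured 225535 to 265947 and 467588 to 587730, 214983 to 308918 and 328466 to 463723, and 205713 to 338523 and 221949 to 473916 in the same pairs. Severe WB replicate 3 of the younger birds, whose subunits stood with the controls, was the lowest of its group for both lists. The sum of the 3 fast fiber troponins was 720164 to 730604 in non-WB and 661432 to 695678 in severe WB birds with mild WS and overlapped with moderate WS and at the younger age. Of 7 tested slow and cardiac-type fiber genes 5 lay higher and 2 lower, and 4 were called higher, CSRP3 (2.90), TNNI1 (2.69), MYOZ2 (2.26) and ATP2A2 (0.64), while MYH7, MYL2 and MYL3 did not pass the filter. The sum over these 7 genes was 259940 to 287293 in non-WB and 262564 and 293498 in severe WB birds with mild WS, which overlapped, and 236010 to 283836 and 292808 to 312818 with moderate WS, which did not. The brightest probes weigh most in such a sum. The median log2 fold change over the 7 genes was 1.02 with mild WS and 0.70 with moderate WS. In these pairs taken alone limma called 0 of the 7, against 4.67% of all probes called higher with mild WS and 0 with moderate WS. Of 6 adipocyte markers 4 lay higher and 2 lower, with LPL called higher (0.57), and of 5 markers of regenerating muscle 3 lay higher and 2 lower, with MYOG (1.35) and NCAM1 (0.84) called higher. All 4 endothelial markers lay lower, with TEK called (-0.82), and 0 of 3 erythrocyte markers and 0 of 3 fast fiber troponins were called, with an unadjusted p under 0.05 for 1 and 0 of them. The part of any of these in the values of the subunits was not tested.

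Across the grades of WS, most subunits had lower values in moderate than in mild WS, but no gene was called. In moderate against mild WS (6 against 6 birds, since mild WS replicate 7 was the only WS array on its slide and did not enter the differences), 58 of 64 genes lay lower and the median was -0.21, with 0 members and 0 of all probes called by limma. A t-test between the groups, with mild WS replicate 7 included and without the methods' batch step, also called 0 members. An unadjusted p under 0.05 was reached by 22 genes (34.4%), all lower, against 4.5% of all 32628 probes lower, and the smallest adjusted p among the members was 0.553. The medians of complexes I to V were -0.19, -0.28, -0.32, -0.21 and -0.19. After scaling to the 75th percentile the median over all members was -0.14, with 55 genes lower.

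SDHA had a lowest, median and highest intensity of 5296, 7143 and 8499 in mild WS and 4041, 5535 and 6478 in moderate WS, with a log2 fold change of -0.44 ± 0.15. NDUFA9 measured 7491, 10482 and 10966 in mild and 5926, 8433 and 9565 in moderate WS (-0.36 ± 0.12), and NDUFS3 11940, 17469 and 19200 against 9026, 14012 and 15707 (-0.39 ± 0.13). The groups overlapped for each of these genes, with moderate WS replicate 5 the lowest bird for all 3. The lowest mild value of NDUFA9 and NDUFS3 was that of mild WS replicate 7, which did not enter the fold changes. The next lowest mild birds measured 9365 and 14837, and the groups still overlapped. NDUFS6 (-0.31) and UQCRHL, a hinge-like protein of complex III (-0.32), had the next smallest p-values. The lowest and highest members were NDUFA11 (-0.53) and NDUFB8 (0.08) of complex I, SDHA and SDHD (-0.18) of complex II, UQCRC1 (-0.37) and UQCR10 (-0.04) of complex III, COX6C (-0.39) and COX6A1 (0.08) of complex IV, and ATP5C1 (-0.26) and ATP5S (0.22) of complex V. UQCR10 changed sign under the other scaling (0.04).

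The size of this difference varied with the slide. The median of moderate minus mild WS was -0.05 on slide 1 (40 of 64 genes lower) and -0.18 on slide 2 (60 lower), each with 2 birds a grade, and -0.50 on slide 3 (61 lower) and -0.19 on slide 4 (46 lower), each with 1 bird a grade. The slide with the largest difference held moderate WS replicate 5, whose median over the members was -0.32 beside -0.13 to 0.01 in the other 5 moderate birds. That bird also had the highest sums of macrophage markers (92732) and fibroblast markers (411573) of all 21 WS-array birds, and their part was not tested. When single birds were left out the median stayed between -0.24 and -0.15.

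**Figure D4:**
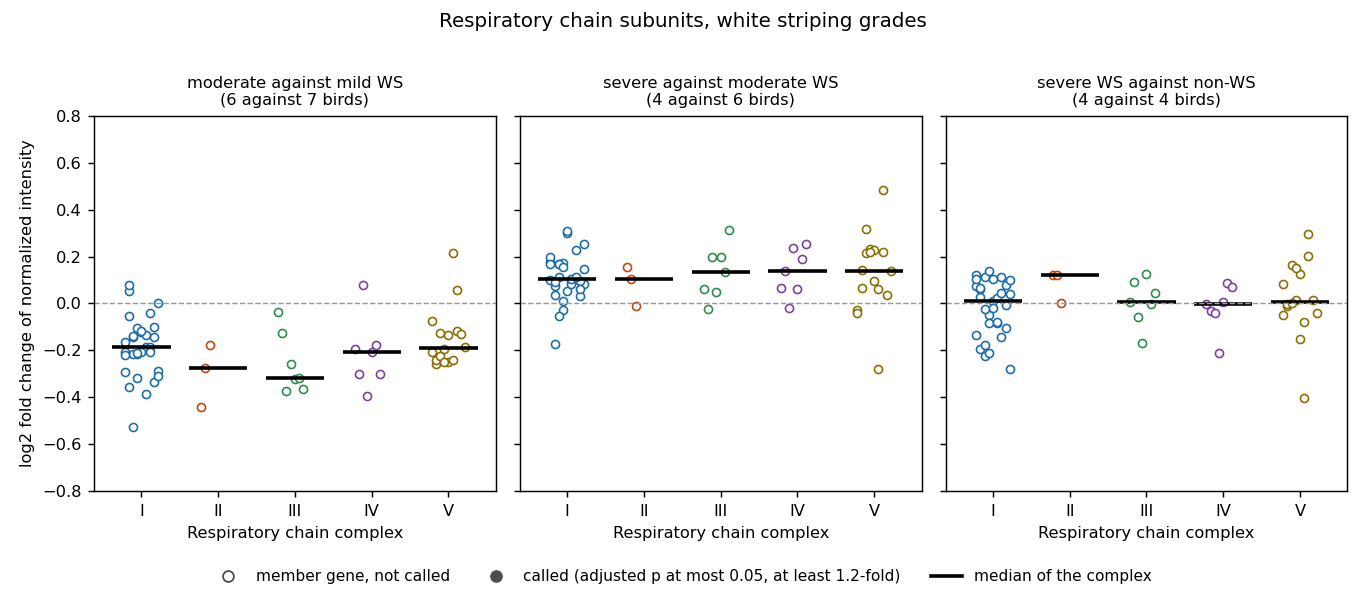
Log2 fold change of each of the 64 tested members on the WS arrays by complex, in 3 panels: moderate against mild WS, severe against moderate WS and severe WS against non-WS. Each point is 1 gene and the short bar is the median of the complex. Most points lie below 0 in moderate against mild WS (58 of 64), above 0 in severe against moderate WS (55 of 64), and on both sides in severe WS against non-WS (34 higher, 30 lower), and no gene was called.

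Severe WS did not lie below moderate WS. In severe against moderate WS (4 against 6 birds), 55 of 64 genes lay higher with a median of 0.11, and limma called 0 members and 0 of all probes. An unadjusted p under 0.05 was reached by 3 genes (4.69%), all higher, against 4.67% of all probes higher, among them ATP5SL (0.48 ± 0.18) and ATP5D, the delta subunit of the synthase (0.32 ± 0.13). ATP5S was the lowest at -0.28. The median was -0.00 on slide 1, where 32 genes lay higher, and 0.12 on slide 2, where 57 did.

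In severe against mild WS (4 against 6 birds) the median was -0.07 with 49 of 64 genes lower, but it turned to 0.09 with 17 lower after scaling to the 75th percentile. limma called 0 members and 0 of all probes, and 2 genes (3.12%) had an unadjusted p under 0.05 against 9.62% of all probes in either direction. ATP5SL was higher (0.54 ± 0.18, adjusted p = 0.383) and NDUFA9 lower (-0.32 ± 0.14), and NDUFA11 had the lowest value (-0.36). ATP5SL measured 1140, 1474 and 2092 as lowest, median and highest in mild WS and 2504, 1989, 1754 and 2116 in severe WS, so that only the highest mild bird reached the range of the severe birds.

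Severe WS against non-WS (4 birds each) showed no common direction, with a median of 0.01 and 34 genes higher and 30 lower, and the median was -0.01 after scaling to the 75th percentile. limma called 0 members against 0.00306% of all probes. ATP5S was the only gene with an unadjusted p under 0.05 (1.56% of the members, against 5.58% of all probes in either direction). It measured 439, 441, 393 and 455 in non-WS and 279, 373, 348 and 311 in severe WS birds, which did not overlap (-0.40 ± 0.16, adjusted p = 0.862), and ATP5SL was the highest (0.30). ATP5S was named for its small p, and how often groups were separate over all probes was not counted. SDHA measured 4470, 6711, 5664 and 4794 in non-WS and 5847, 5338, 6857 and 5325 in severe WS birds, and the groups overlapped. The age and collection of the non-WS birds were not given, so either cannot be told apart from the grade in this comparison. Comparisons among the WS grades share birds, and no agreement between them was counted.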

How the data were processed

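The authors deposited scanner intensity values per spot and a value table on a linear intensity scale, in which the WS arrays were normalized and the WB arrays mostly equalled the processed intensity. From the processed intensity, spots of a probe were averaged. Probes were kept that were unmarked and well above background with a processed intensity of at least 20 on every array of a set (21 WS, 19 WB arrays). Each set was quantile-normalized over these probes on the linear scale and then log2-transformed. The values were fitted with limma 3.58.1 (R 4.3.3), with the slide as a factor and Benjamini-Hochberg adjustment. A call needed an adjusted p of 0.05 or less and a 1.2-fold difference. Probes were named through their RefSeq accession and the GRCg7b gene table, for names only. The code was tested on simulated data. Named are the largest and smallest value per complex (over all members for the other WS grades and the differences between effects), called members, genes with the lowest p-values, central subunits and isoform sets. Members, lists and rules were chosen with earlier results of these data known. Deviations of same-numbered replicates correlated from -0.23 to 0.33 on the WS arrays and from -0.10 to 0.11 on the WB arrays. In severe WS against non-WS they were all weakly positive (0.06 to 0.14). Numbers were not stated to be pairs and were not used as pairs in the main fit. Alternatives covered background (normexp on the median signal, since the mean signal was not used here), scaling, value table, filter, slide, replicate block, arrays in the fit, test, threshold, probe choice and each array left out. Precision is limited by the number of arrays. Some items are not reported here.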

Additional observations from a re-analysis of the deposited data

Results flagged for a closer look

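In groups of 4 to 10 birds, the gap between the highest or lowest bird and the next was set against the range of the group (Dixon's criterion), in 172 groups of values. Chance gives such a bird in about 1 of 20 groups, and 16 were found. The groups share birds and genes and are not independent, so this count cannot be read as an excess over chance. No explanation was tested.

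Moderate WS replicate 5 was far below the other moderate birds in the median of complex I (-0.33, the others -0.09 to -0.00), complex II (-0.48, the others -0.13 to 0.07) and complex III (-0.52, the others -0.13 to 0.08), and for NDUFS3 (9026, the others 13566 to 15707) and UQCRHL (22964, the others 30270 to 32164). Mild WS replicate 7 was below the other mild birds in the median over all members (-0.17, the others 0.03 to 0.18) and in complex III (-0.26, the others 0.03 to 0.21), and for NDUFA11 (16469, the others 28013 to 39933) and NDUFA9 (7491, the others 9365 to 10966). This bird was the only WS array on its slide, so that it does not enter the fold changes.

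Single genes gave the remaining cases. Among severe WS birds, COX6A1 was high in replicate 2 (29020, the others 19482 to 20495) and NDUFB8 low in replicate 1 (9320, the others 13196 to 14169). Among non-WB birds with moderate WS, ATP5B was low in replicate 2 (108816, the others 124422 to 126958). Among the younger non-WB birds, ATP5C1 was high in replicate 1 (76605, the others 64344 to 65467), NDUFB3 was high in replicate 3 (21535, the others 18877 to 19068), and replicate 2 was low for ATP5H (12733, the others 40347 to 47162) and UQCRFS1 (11146, the others 14814 to 15627).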

How the results depend on the processing

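The counts of called members with mild WS at 49 days and over both grades at 49 days (14 and 11) were 31 and 26 after scaling to the 75th percentile, 9 and 5 without the detection filter, 25 and 24 in one fit over all 40 arrays, and 35 and 30 at an adjusted p of 0.2. Over both grades 20 were called without a slide term and 20 with the slide as a random block. With mild WS a t-test between the groups, without the methods' batch step, called 0. Same-numbered birds were not shown to be pairs, and with the replicate number as a block (replicate block) 7 and 7 were called. The share of all probes called in these fits is not given here. A change in these counts therefore cannot be read as particular to the members. Scaling to the 75th percentile moved the median to 0.0896 in severe against mild WS, -0.84 with mild WS at 49 days, -0.51 over both grades, 0.26 for the age difference and -0.68 for the difference between grades. The cause was not tested.

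With single arrays left out, the called counts ranged from 0 to 22 (mild WS, 49 days), 0 to 19 (49 days) and 0 to 8 (45 days or under), and medians from -0.45 to -0.39, -0.28 to -0.19 and -0.31 to -0.10. These ranges of counts are of members only, without the share of all probes called beside them. Medians ranged from -0.10 to 0.05 (moderate WS, 49 days), -0.07 to 0.12 (age difference), -0.44 to -0.28 (difference between grades), -0.24 to -0.15 (moderate against mild WS), 0.08 to 0.18 (severe against moderate), -0.11 to -0.02 (severe against mild) and -0.06 to 0.08 (severe WS against non-WS).

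Signs of some named genes turned. After scaling to the 75th percentile these were NDUFS5 (-0.39 with mild WS, -0.22 at 49 days), ATP5G3 (-0.54 with mild WS, -0.0234 with moderate WS, -0.28 at 49 days), COX6A1 (-0.0207 at 49 days) and UQCR10 (0.0396 in moderate against mild WS), and with normexp SDHD (0.0087) and COX6C (0.014) with moderate WS. COX4I1 at 49 days was 0.00055 without the filter, 0.038 without the slide, 0.039 with the random block, 0.0027 with the replicate block and 0.015 over all 40 arrays, and ATP5G2 0.035 with the replicate block. With single arrays left out, COX4I1 ranged from -0.15 to 0.0628 with mild WS and -0.0676 to 0.0478 at 49 days, ATP5G2 from -0.0815 to 0.0597 at 49 days, and with moderate WS NDUFV3 from -0.0421 to 0.46, SDHD from -0.0811 to 0.12, UQCRC2 from -0.14 to 0.04, COX6C from -0.11 to 0.0205 and ATP5SL from -0.28 to 0.00799. ATP5H ranged from -0.22 to 0.72 at 45 days or under and from -0.14 to 0.80 for the age difference, and in moderate against mild WS UQCR10 ranged from -0.0617 to 0.0164 and COX6A1 from -0.0208 to 0.17. Of the values of named genes with all arrays, 1315 kept their sign and side of the threshold, 29 passed it, 41 no longer did and 15 changed sign. With the fits that leave out single arrays included these were 3112, 36, 214 and 39. Genes that were not called are part of these totals. Of the called genes at 49 days, SDHA and UQCRFS1 kept their call in 30 of 32 settings and NDUFB10 in 15. With mild WS, UQCRFS1 kept its call in 29 of 33 settings, and NDUFA1 and ATP5C1 kept theirs in 17. COX7A2, COX8A and ATP5F1AW are limited by low signal.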
